A study of Triticum aestivum with 10 samples.

Results

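The gliadin genes of bread wheat were followed in whole developing seeds of the winter cultivar Redland on 10 Affymetrix wheat arrays. They were taken as every probe set that the platform annotation assigns to LOC543210, LOC543211, LOC543212, LOC543214 or LOC543385, which gave 8 probe sets for 5 genes, out of 61179 probe sets tested and 771 genes with a symbol. A probe set is a group of short probes read together as 1 value, and the values are log2 expression values, so that a difference of 1 is a 2-fold change. The arrays formed 5 groups of 2: seeds of regularly watered control plants at 24 hours after fertilization (HAF), seeds of plants left without water and of watered plants at 48 HAF, and the same pair of treatments at 72 HAF. All plants were vernalized and grown in chambers in the same way. The descriptions give the start of drought as 24 HAF in one place and 48 HAF in another, so that seeds harvested at 48 HAF had either been without water for a day or had only entered the treatment. The comparisons set droughted seeds beside watered seeds of the same age, and later seeds beside earlier ones.

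Gliadins are the monomeric prolamins of the wheat grain, proteins rich in proline and glutamine that are made in the starchy endosperm, stored in protein bodies and mobilised at germination. In dough they give viscosity to gluten, and peptides of the alpha- and gamma-gliadins are known triggers of coeliac disease. Alpha-gliadins are encoded by large families of similar copies at the Gli-2 loci and gamma-gliadins by a family at the Gli-1 loci, and their transcription is usually described as beginning once the endosperm has become cellular. By the synonyms of the reference gene table, 4 of the genes, with 5 probe sets, belong to Gli-2: LOC543210 (Gli-D2-16), LOC543211 (Gli-8), LOC543212 (Gli-D2-1) and LOC543385 (Gli-B2-11). LOC543214 (GAG56D, gamma-2), with 3 probe sets, is a gamma-gliadin. Of the 8 probe sets, 5 carry the suffix _x_at, by which the manufacturer marks probes that may also bind similar transcripts, so a value may stand for several gliadin copies and the probe sets are not independent measurements. The seeds were taken whole, and fewer cells of a type and less RNA per cell cannot be told apart.

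The arrays did not group by their labels. The array closest to each array lay in another group in all 10 cases. Control 72 HAF replicate 2 correlated at r = 0.996 over the tested probe sets with drought 72 HAF replicate 1, and at 0.969 with the other control 72 HAF array. Replicates of the other groups correlated at 0.820 for control 24 HAF, at 0.987 for drought and 0.986 for control seeds at 48 HAF, and at 0.951 for drought 72 HAF. Control 24 HAF replicate 2 stood farthest apart, with a spiked hybridisation control (BioB) at 11.9, against 4.01 to 6.97 on the remaining arrays. Each group's 2 arrays are described as biological replicates, with no plant or ear named. A p-value here sets a difference of means against the spread between such arrays, pooled over all groups fitted. That spread may be partly technical, and the small number of arrays limits the precision of every value.

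The main feature of the gliadin data was a jump between a low and a high level on particular arrays, and it did not follow the labelled groups throughout. The gamma-gliadin probe set Ta.30782.4.S1_at of LOC543214 read 1.84 and 7.55 in control seeds at 24 HAF. At 48 HAF it read 1.80 and 1.70 in drought seeds and 1.59 and 1.71 in control seeds. At 72 HAF it read 8.62 and 8.17 in drought seeds and 1.60 and 8.73 in control seeds. Thus 4 arrays were high (control 24 HAF replicate 2, both of drought 72 HAF and control 72 HAF replicate 2), and the other 6 lay between 1.59 and 1.84.

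The alpha-gliadin genes LOC543210 and LOC543211 were high on the same 4 arrays. LOC543210 (Ta.24114.1.S1_x_at) read 2.86 and 6.15 in control seeds at 24 HAF. It read 2.89 and 3.26 in drought and 3.08 and 3.29 in control seeds at 48 HAF, and 8.96 and 8.18 in drought and 3.11 and 8.94 in control seeds at 72 HAF. Its value on control 24 HAF replicate 2 was thus intermediate, above the 6 low arrays and below the 3 high arrays of 72 HAF. LOC543211 (Ta.15268.1.S1_x_at) read 5.04 and 8.83 in control seeds at 24 HAF. It read 4.73 and 4.51 in drought and 4.83 and 4.81 in control seeds at 48 HAF, and 10.2 and 9.16 in drought and 4.61 and 10.1 in control seeds at 72 HAF. Its 6 low arrays lay between 4.51 and 5.04, and its 4 high arrays between 8.83 and 10.2.

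The second gamma-gliadin probe set of LOC543214, Ta.28632.1.S1_x_at, followed the same division with smaller steps and another order among the high arrays. It read 1.91 and 4.68 in control seeds at 24 HAF, and at 48 HAF 1.99 and 1.79 in drought and 1.97 and 1.83 in control seeds. At 72 HAF it read 4.10 and 5.30 in drought and 2.13 and 4.09 in control seeds. Drought 72 HAF replicate 2 was its highest array, while for LOC543210, LOC543211 and Ta.30782.4.S1_at that array was the lower of the drought pair. The alpha-gliadin gene LOC543212 (Ta.6699.1.S1_at) read 2.17 and 3.15 in control seeds at 24 HAF. It read 2.03 and 1.80 in drought and 2.14 and 2.27 in control seeds at 48 HAF, and 3.87 and 2.82 in drought and 2.13 and 3.72 in control seeds at 72 HAF. Its 4 higher arrays, at 2.82 to 3.87, were those of the probe sets above. These values were still low on the scale, since only 23.1% to 46.5% of all probe sets read lower on those arrays.

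**Figure D1:**
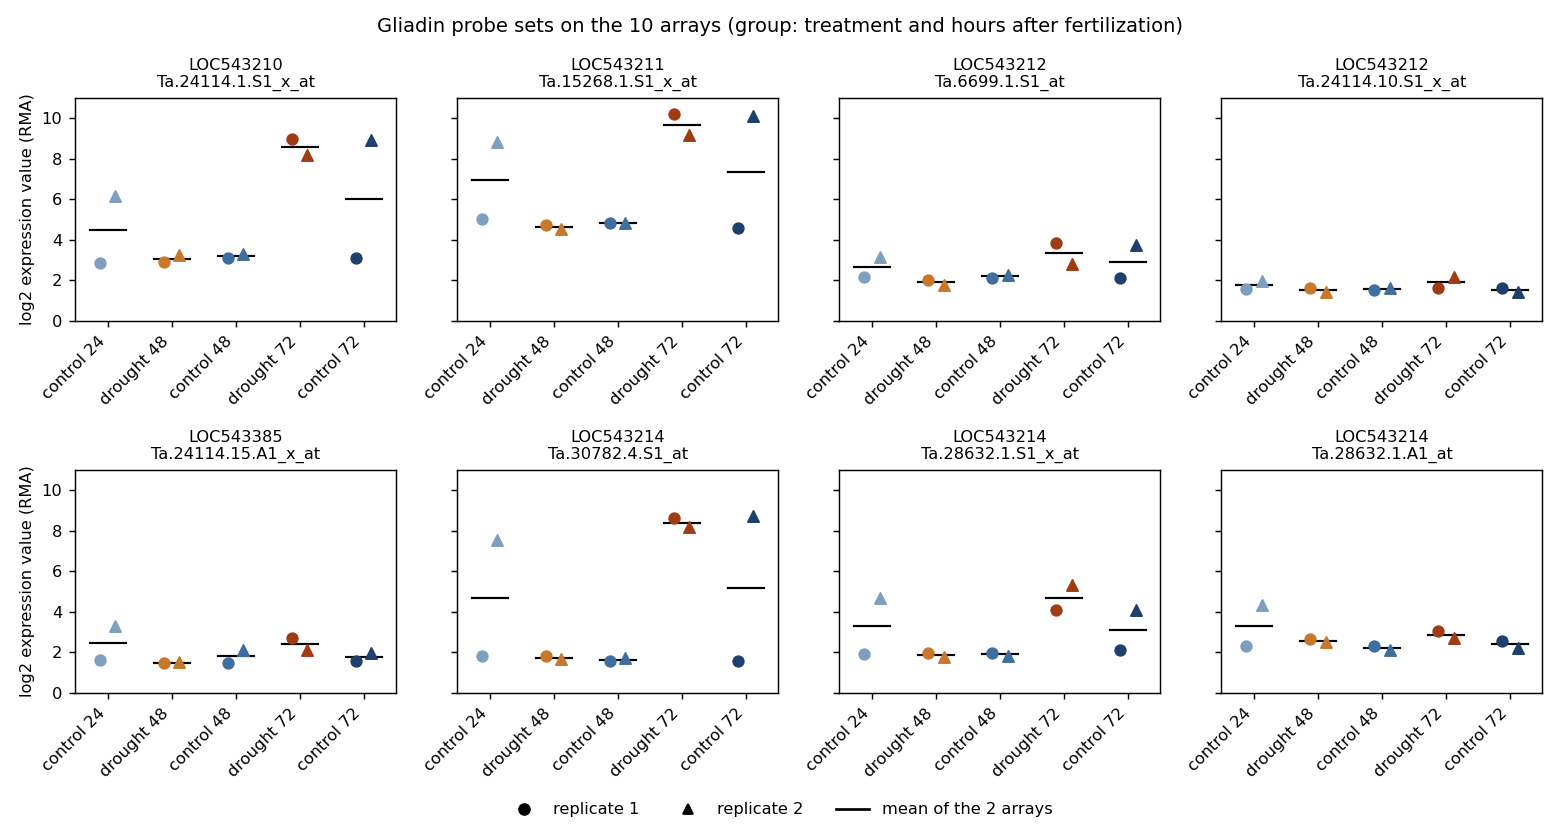
Log2 expression value (vertical axis) of the 8 gliadin probe sets, 1 panel each, on the 10 arrays by group (horizontal axis: treatment and hours after fertilization). Circles are replicate 1, triangles replicate 2 and lines the mean of the 2 arrays; in LOC543210, LOC543211 and 2 probe sets of LOC543214 the control arrays of 24 and of 72 HAF lie far apart, while the arrays of 48 HAF stay low.

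The remaining 3 probe sets stayed near the bottom of the scale on nearly all arrays. The second probe set of LOC543212, Ta.24114.10.S1_x_at, lay between 1.41 and 2.19 on all 10 arrays. LOC543385 (Ta.24114.15.A1_x_at), an alpha-gliadin gene of Gli-B2, lay between 1.46 and 3.31, and the third probe set of LOC543214, Ta.28632.1.A1_at, between 2.14 and 4.32. For the last 2, the highest array was control 24 HAF replicate 2. No detection calls were used here, so it is not known whether the low values of any gliadin probe set lay above background. Probe sets of 1 gene therefore disagreed: in LOC543214 the difference between the highest and the lowest array was 7.13 for Ta.30782.4.S1_at, 3.51 for Ta.28632.1.S1_x_at and 2.19 for Ta.28632.1.A1_at, and in LOC543212 it was 2.07 and 0.77. Ta.28632.1.A1_at and the probe set of LOC543385 carry the strand mark A1 in their identifiers, the other gliadin probe sets S1. The part of strand in the disagreement was not tested.

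Between highest and lowest array, 6 of the 8 gliadin probe sets spanned more than 2 on the log2 scale, as did 23.1% of all tested probe sets. Only 50 of the 61179 probe sets, itself included, had a span as large as Ta.30782.4.S1_at (0.0817%), 122 one as large as LOC543210 at 6.10 (0.199%), and 173 one as large as LOC543211 at 5.70 (0.283%). At the other end, 82.2% of all probe sets spanned at least as much as Ta.24114.10.S1_x_at of LOC543212.

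Over the 10 arrays, Ta.30782.4.S1_at of LOC543214 correlated at r = 0.996 with LOC543211, at 0.978 with LOC543210, at 0.951 with Ta.28632.1.S1_x_at and at 0.930 with Ta.6699.1.S1_at of LOC543212. LOC543210 and LOC543211 correlated at 0.982. LOC543385 and Ta.28632.1.A1_at, the pair whose highest array was control 24 HAF replicate 2, correlated at 0.807 with each other and at 0.302 to 0.718 with LOC543210, LOC543211 and Ta.30782.4.S1_at. The 2 probe sets of LOC543212 correlated at 0.196. These coefficients describe the same 10 arrays, rest mostly on the step between low and high arrays, and may include probes that bind transcripts of several copies.

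In droughted seeds, all 8 gliadin probe sets were higher at 72 than at 48 HAF, with no overlap between the arrays. So were 23.3% of all tested probe sets. In Ta.24114.10.S1_x_at the separation was very narrow and at low values: the lower array of 72 HAF read 1.64 and the higher of 48 HAF 1.63. For Ta.28632.1.A1_at these arrays read 2.69 and 2.66. For 5 of the 8 the means were also at least 2-fold apart, against 2.89% of all probe sets. LOC543214 (Ta.30782.4.S1_at) had a mean of 8.39 in the 72 HAF seeds (SD 0.32, n = 2) and of 1.75 in the 48 HAF seeds (SD 0.076, n = 2), a difference of 6.64 ± 2.22 (SE). No fold is given, since the 48 HAF level may lie at background. Of the 61179 probe sets, 17, itself included, had a difference as large. LOC543210 had means of 8.57 ± 0.55 at 72 HAF and 3.07 ± 0.26 at 48 HAF, a difference of 5.50 ± 1.66 (SE). LOC543211 had means of 9.69 ± 0.74 at 72 HAF and 4.62 ± 0.15 at 48 HAF, a difference of 5.07 ± 1.67. The second gamma-gliadin probe set, Ta.28632.1.S1_x_at, differed by 2.81 ± 0.89 and LOC543212 (Ta.6699.1.S1_at) by 1.43 ± 0.56. LOC543385 (0.94 ± 0.51), Ta.24114.10.S1_x_at of LOC543212 (0.38 ± 0.27) and Ta.28632.1.A1_at of LOC543214 (0.29 ± 0.54) differed by less than 2-fold.

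None of these differences passed limma's threshold when all 10 arrays were fitted together (adjusted p = 0.953 to 0.968 for the 8 probe sets; 0.0% of all probe sets called). Unadjusted, 5 of the 8 had a limma p under 0.05, as did 4.04% of all probe sets. In that fit the spread of a probe set is shared by all groups, and the gliadins carry the wide gaps of control 24 and control 72 HAF into it. In a fit of the 4 drought arrays alone, the same differences passed for Ta.30782.4.S1_at of LOC543214 (6.64 ± 0.37, adjusted p = 0.00317), for LOC543210 (5.50 ± 0.44, adjusted p = 0.00865) and for LOC543211 (5.07 ± 0.47, adjusted p = 0.0157). That fit called 0.149% of all probe sets, 91 in all, and not the other 5 gliadin probe sets. The next of them was Ta.28632.1.S1_x_at (adjusted p = 0.0867). The median difference of the 8 gliadin probe sets was 2.12, against 0.056 for all probe sets.

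In watered seeds, the same step from 48 to 72 HAF was present on one of the control 72 HAF arrays and absent on the other. LOC543214 (Ta.30782.4.S1_at) had a mean of 5.16 in the 72 HAF seeds (SD 5.04, n = 2) and of 1.65 in the 48 HAF seeds (SD 0.083, n = 2), a difference of 3.51 ± 2.22 (SE). For LOC543210 the mean was 6.03 ± 4.12 at 72 HAF and 3.19 ± 0.15 at 48 HAF, and the difference 2.84 ± 1.66. For LOC543211 it was 7.37 ± 3.90 at 72 HAF and 4.82 ± 0.018 at 48 HAF, and the difference 2.55 ± 1.67. Control 72 HAF replicate 1 read 1.60, 3.11 and 4.61 for these 3 probe sets, below the means of the watered seeds at 48 HAF. None of the 8 passed the test (limma adjusted p = 1 for each, 0 of 8 with an unadjusted p under 0.05, 0.0% of all probe sets called). In 1 of the 8, Ta.28632.1.S1_x_at, the arrays of 72 HAF lay above those of 48 HAF (as in 15.7% of all probe sets), with means at least 2-fold apart (0.397%). Its lower array of 72 HAF read 2.13, against 1.97 on its higher array of 48 HAF. The median difference of 0.97 became -0.065 without control 72 HAF replicate 2 and 1.86 without replicate 1.

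Taking drought and watered seeds together, gliadin probe sets were higher at 72 than at 48 HAF by a median of 1.54, against 0.034 for all probe sets, and 0 of 8 passed (limma adjusted p = 0.974 to 0.978; 0.0% of all probe sets called). LOC543210 differed by 4.17 ± 1.17 (SE), LOC543211 by 3.81 ± 1.18, LOC543214 by 5.08 ± 1.57 for Ta.30782.4.S1_at and 2.01 ± 0.63 for Ta.28632.1.S1_x_at, and LOC543212 (Ta.6699.1.S1_at) by 1.08 ± 0.39. These 5 had an unadjusted limma p under 0.05, as did 3.76% of all probe sets. Ta.28632.1.S1_x_at was the 1 gliadin probe set whose 4 arrays of 72 HAF all lay above the 4 arrays of 48 HAF with means at least 2-fold apart. Its lowest array of 72 HAF, control replicate 1, read 2.13, against 1.99 on its highest array of 48 HAF. Of all probe sets, 4.9% were separated in this direction and 0.603% also reached 2-fold.

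At 72 HAF, the 8 gliadin probe sets had higher means in droughted than in watered seeds, but for LOC543210, LOC543211, Ta.6699.1.S1_at and Ta.30782.4.S1_at the direction rested on control 72 HAF replicate 1. The differences ran from 0.40 ± 0.27 (SE) for Ta.24114.10.S1_x_at of LOC543212 to 3.23 ± 2.22 for Ta.30782.4.S1_at of LOC543214, with LOC543210 at 2.54 ± 1.66 and LOC543211 at 2.32 ± 1.67. The 95% interval for Ta.30782.4.S1_at reached from -1.83 to 8.29. None passed (limma adjusted p = 1 for each), 0 of 8 had an unadjusted p under 0.05, and 0.0% of all probe sets were called. In 4 of the 8 the drought arrays lay above both control arrays, as in 13.0% of all probe sets. These 4 were not LOC543210, LOC543211 or Ta.30782.4.S1_at, but LOC543385, Ta.24114.10.S1_x_at and the other 2 probe sets of LOC543214. At least 2-fold apart was 1 of them, Ta.28632.1.S1_x_at (against 0.348% of all probe sets), whose lower drought array exceeded the higher control array by 0.0038. The lower drought array and the higher control array read 1.64 and 1.62 for Ta.24114.10.S1_x_at. They read 2.69 and 2.55 for Ta.28632.1.A1_at, and 2.14 and 1.98 for LOC543385, all low values.

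Without control 72 HAF replicate 1, the differences of LOC543210, LOC543211, Ta.6699.1.S1_at and Ta.30782.4.S1_at were negative. The other 4 of the 8 stayed positive, at 0.45 to 0.65, and the median moved to 0.059, against 1.11 with all arrays. LOC543210 then differed by -0.37, LOC543211 by -0.44 and Ta.30782.4.S1_at by -0.33. Without control 72 HAF replicate 2 they differed by 5.46, 5.08 and 6.80, and still none passed (limma adjusted p = 1). The gap between the control 72 HAF arrays was 7.13 for Ta.30782.4.S1_at, a gap that 13 of the 61179 probe sets reached (0.0212%, itself included), and 5.83 for LOC543210 and 5.52 for LOC543211, reached by 39 and 50 probe sets. Drought 72 HAF replicate 1 exceeded control 72 HAF replicate 2 by 0.020 for LOC543210, 0.085 for LOC543211, 0.14 for Ta.6699.1.S1_at and 0.0038 for Ta.28632.1.S1_x_at. For Ta.30782.4.S1_at the difference between these arrays was -0.11, and the median difference in size over all tested probe sets was 0.126. The larger differences between them were 0.84 for Ta.28632.1.A1_at and 0.74 for LOC543385, both from low levels.

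**Figure D2:**
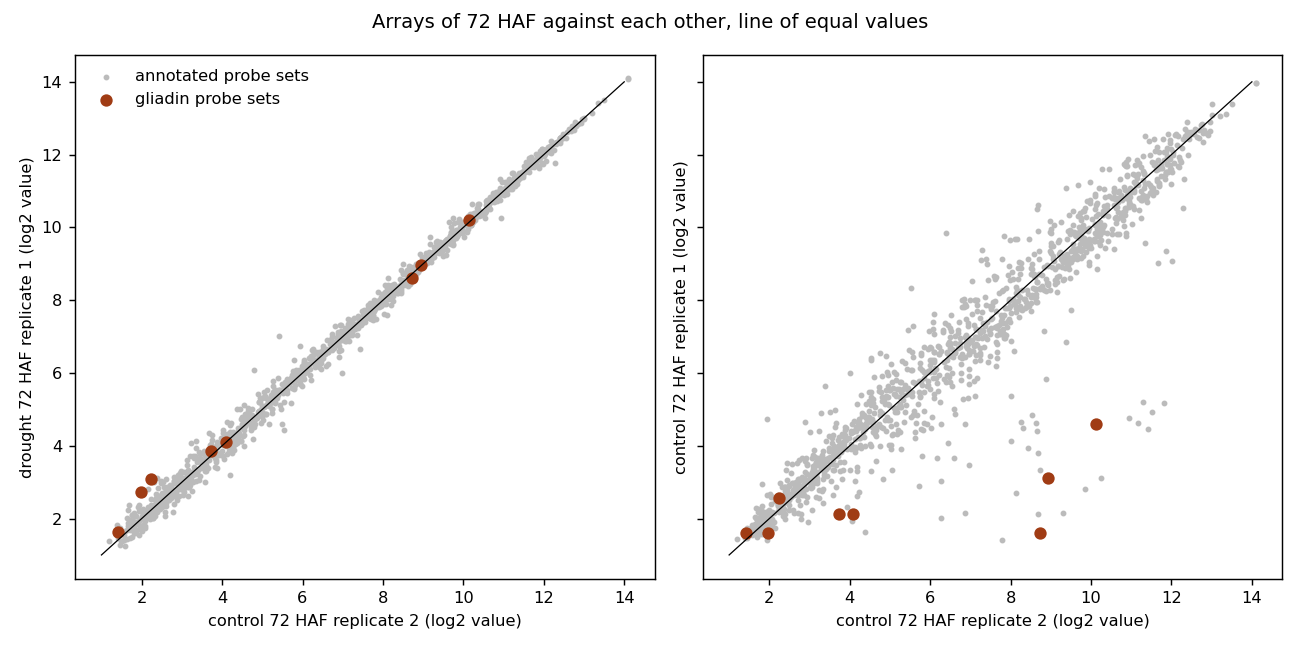
Log2 values of the 1273 annotated probe sets (grey) and the gliadin probe sets among them (red-brown) on drought 72 HAF replicate 1 (left, vertical axis) and control 72 HAF replicate 1 (right, vertical axis), each against control 72 HAF replicate 2 (horizontal axis), with the line of equal values. On the left the gliadins of high level lie on the line; on the right the 3 probe sets that read 8.73 to 10.1 on control 72 HAF replicate 2 read 1.60 to 4.61 on replicate 1.

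At 48 HAF the gliadins were low under both treatments. Ta.30782.4.S1_at of LOC543214 was at 1.75 ± 0.076 in drought and 1.65 ± 0.083 in control seeds (mean ± SD, n = 2 each). LOC543210 was at 3.07 ± 0.26 in drought and 3.19 ± 0.15 in control seeds, and LOC543211 at 4.62 ± 0.15 in drought and 4.82 ± 0.018 in control seeds. Over the 8 probe sets the differences ran from -0.32 for LOC543385 to 0.35 for Ta.28632.1.A1_at, with 2 positive and 6 negative and a median of -0.084, against 0.0022 for all probe sets. No gliadin probe set passed the test (limma adjusted p = 1 for each; 0 of 8 with an unadjusted p under 0.05; 0.0% of all probe sets called). In 1 of the 8 the drought arrays lay above the control arrays (Ta.28632.1.A1_at, against 15.9% of all probe sets) and in 2 below them (LOC543211 and Ta.6699.1.S1_at, against 15.4%), none by 2-fold. The 95% interval of the difference was -5.0 to 5.2 for Ta.30782.4.S1_at and -0.67 to 0.56 for Ta.24114.10.S1_x_at. These intervals take in the wide gaps of control 24 and control 72 HAF. In a fit of the 4 arrays of 48 HAF alone the difference of Ta.30782.4.S1_at was 0.097 ± 0.12 (SE), and again none of the 8 passed (limma adjusted p = 0.999 for each).

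The drought effect was larger at 72 than at 48 HAF in all 8 probe sets by their means, with a median of 1.28, against 0.029 for all probe sets. The test of this difference called 0 of 8 (limma adjusted p = 1; 0 of 8 with an unadjusted p under 0.05; 0.0% of all probe sets called). It was 3.13 ± 3.14 (SE) for Ta.30782.4.S1_at, 2.66 ± 2.34 for LOC543210, 2.52 ± 2.37 for LOC543211 and 1.60 ± 1.26 for Ta.28632.1.S1_x_at. Without control 72 HAF replicate 1 the first 3 were -0.43, -0.26 and -0.24, and the median was 0.10.

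**Figure D3:**
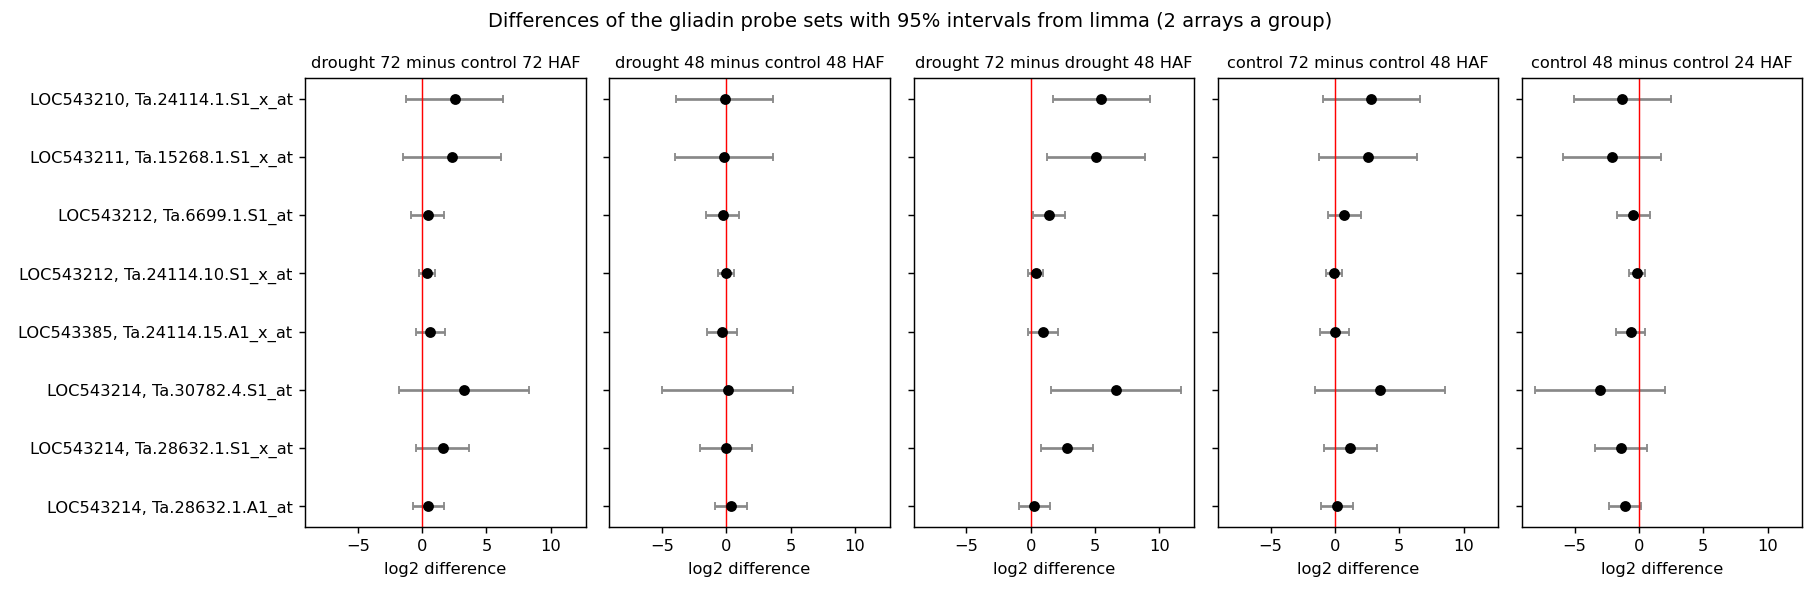
Log2 difference (horizontal axis) of each gliadin probe set (rows) in 5 comparisons, with 95% intervals (bars) from the limma fit of all 10 arrays; the vertical line marks no difference. Only in drought 72 minus drought 48 HAF do intervals lie wholly above 0, for 5 probe sets, before adjustment for the number of probe sets tested.

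In watered seeds, gliadins were lower at 48 than at 24 HAF by their means, and the high values of 24 HAF came from control replicate 2. The differences ran from -3.04 ± 2.22 (SE) for Ta.30782.4.S1_at of LOC543214 to -0.19 ± 0.27 for Ta.24114.10.S1_x_at, and 0 of 8 passed (limma adjusted p = 0.621 to 0.742; 0 of 8 with an unadjusted p under 0.05; 0.0% of all probe sets called). In 2 of the 8, LOC543211 and Ta.30782.4.S1_at, both arrays of 48 HAF lay below both arrays of 24 HAF with means at least 2-fold apart. Of all probe sets, 15.0% were separated in this direction and 1.81% also reached 2-fold. Without control 24 HAF replicate 2 the median difference was 0.0013, against -1.21 with all arrays. With that array alone standing for 24 HAF, it was -2.43. That fit, in which replicate 2 is assumed to vary like the other groups, called 3 gliadin probe sets, all lower at 48 than at 24 HAF, with differences of -2.09 for Ta.28632.1.A1_at (adjusted p = 0.000695), -1.50 for LOC543385 (adjusted p = 0.00723) and -2.78 for Ta.28632.1.S1_x_at (adjusted p = 0.0154). It also called 41.9% of all probe sets. Between 72 and 24 HAF the watered means differed by 0.47 ± 2.22 for Ta.30782.4.S1_at and by 1.52 ± 1.66 for LOC543210, with 4 of 8 probe sets positive, 0 of 8 called (limma adjusted p = 0.728 to 0.945; 0 of 8 with an unadjusted p under 0.05) and 0.0% of all probe sets called. Without control 24 HAF replicate 1, 2 of the 8 were called in that comparison, as were 37.2% of all probe sets.

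Other prolamins and grain proteins were compared with the gliadins by lists of genes, each gene read by its brightest probe set. Of the list of other prolamins, LOC543213, a low-molecular-weight glutenin gene whose product cross-links into the elastic part of gluten, read 5.40 and 7.68 in control seeds at 24 HAF. At 48 HAF it read 5.36 and 5.30 in drought and 5.63 and 5.68 in control seeds, and at 72 HAF 7.33 and 7.32 in drought and 5.69 and 6.97 in control seeds, so that its high arrays were those of the gliadins. Avenin-like protein a (LOC780582) read 8.58 and 6.30 in drought and 3.95 and 8.43 in control seeds at 72 HAF, but 4.82 on control 24 HAF replicate 2. Avenin-like protein b (LOC100125692) was divided between its probe sets. The brightest, Ta.27777.1.S1_at, differed by -0.77 between drought 72 and drought 48 HAF, while the other 3 differed by 3.14 to 5.06. None of the 3 genes was called for drought 72 against 48 HAF (limma adjusted p = 0.953 for each), and the same held for every gene of the lists below.

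Part of the grain inhibitors followed the gliadins. Of 7 genes, 4 were at least 2-fold higher, without overlap, in drought 72 than in drought 48 HAF seeds (2.89% of all probe sets). The same 4 correlated above 0.9 with the mean of the gliadin probe sets over the 10 arrays. So did 3.92% of the annotated genes outside the gliadins, each by its brightest probe set, and 0.739% of all probe sets. These were LOC543286 and LOC543281, which carry the synonym ATI of the amylase and trypsin inhibitors (differences of 6.47 and 7.31), the gene wci (LOC542996, 3.42) and the amylase inhibitor WMAI-1 (LOC542981, 3.18). LOC543281 read 11.5 and 10.8 in drought and 4.47 and 11.4 in control seeds at 72 HAF, and 10.4 on control 24 HAF replicate 2. At 48 HAF it was uneven between replicates, at 4.91 and 2.68 in drought and 2.74 and 4.63 in control seeds. The other 3, serpins, which are protease inhibitors of the grain, differed by -0.18 to 0.56. Serpin LOC542985, the highest of these, was separated between the drought arrays and correlated at 0.784 with the gliadin mean. LOC543286, LOC543281, wci and WMAI-1 entered the list through synonyms added after these had been read, and so did both avenin-like genes in theirs and, in the list of thionins, 2 of 3 genes, THI1.1 and THI1.2.

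The 3 thionin genes, small antimicrobial proteins of the endosperm, moved with the gliadins as well. The mean of the 3 was 4.34 and 8.27 in control seeds at 24 HAF, and at 48 HAF 3.01 to 4.64 in drought and 3.25 to 4.42 in control seeds. At 72 HAF it was 8.71 and 10.6 on the drought arrays and 4.25 and 10.9 on the control arrays. THI1.1 differed by 7.07 between drought 72 and 48 HAF, THI1.3 (LOC543413) by 5.62 and THI1.2 by 4.83. Unlike the gliadins, THI1.1 was already uneven at 48 HAF, at 5.45 and 2.37 in drought and 2.53 and 5.47 in control seeds, while LOC543210 differed by at most 0.37 between replicates there.

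Starch synthesis genes did not follow the gliadins. The granule-bound starch synthase gene waxy (LOC543395), which makes amylose, lay between 10.3 and 10.8 on all 10 arrays. AGP-S (LOC543299), the small subunit of ADP-glucose pyrophosphorylase, read 11.2 and 9.60 in drought and 9.58 and 11.3 in control seeds at 72 HAF, and 8.38 on control 24 HAF replicate 2. It thus separated drought 72 HAF replicate 2 from replicate 1 where the gliadins were high on both, and its correlation with the gliadin mean was 0.090.

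**Figure D4:**
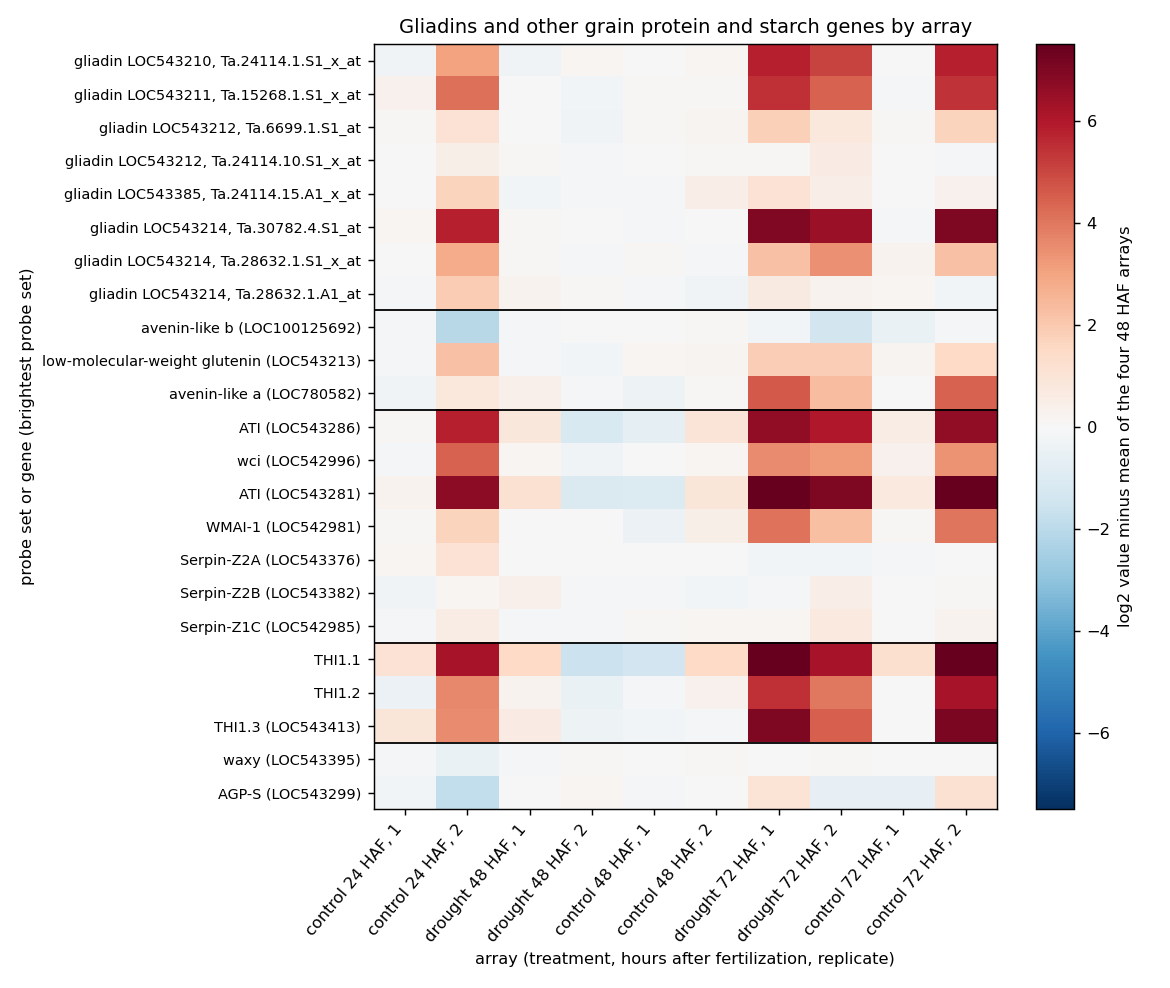
Log2 value minus the mean of the 4 arrays of 48 HAF (colour) for the 8 gliadin probe sets and for genes of the lists of other prolamins, grain inhibitors, thionins and starch synthesis (rows, lists divided by lines) on the 10 arrays (columns, replicate number last). The gliadins LOC543210 and LOC543211, Ta.30782.4.S1_at of LOC543214, the ATI genes and the thionins are raised on the same 4 arrays (control 24 HAF replicate 2, drought 72 HAF replicates 1 and 2, control 72 HAF replicate 2). The gliadin probe set Ta.24114.10.S1_x_at and waxy differ little between arrays.

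Markers of other parts of the seed shifted in part with the gliadins. The photosystem II genes PsbO (LOC543291) and PsbP (LOC543290), active in the green pericarp, averaged 10.7 to 10.9 in control seeds at 24 HAF, 10.4 to 10.9 on the drought and 10.7 to 11.1 on the control arrays of 48 HAF, and 11.2 to 11.4 on the drought and 10.8 to 11.2 on the control arrays of 72 HAF. A second probe set of PsbP was 1.66 higher in drought 72 than in drought 48 HAF seeds and correlated at 0.915 with the gliadin mean. The 3 histone H2A genes, markers of dividing tissue that entered their list after the synonyms had been read, averaged 9.69 to 10.6 in control seeds at 24 HAF, 10.2 to 10.7 on the drought and 10.1 to 10.5 on the control arrays of 48 HAF, and 9.68 to 10.2 on the drought and 9.92 to 11.1 on the control arrays of 72 HAF. The highest histone array by this average was control 72 HAF replicate 1, the array of 72 HAF on which the gliadins were low. The further probe sets of LOC732714 were also highest there. The second probe set of LOC732713 was not, at 5.14 on that array and 5.71 on control 72 HAF replicate 2. Among the histone genes LOC732712 (H2A-2) stood apart. It read 6.66 and 7.21 in drought 72 HAF seeds and 8.04 and 8.80 in drought 48 HAF seeds, a difference of -1.49. Its correlation with the gliadin mean was -0.844. Profilin (LOC543315), a pollen marker also present in other tissues, lay at 12.4 to 12.6 on all arrays by its brightest probe set, and its second probe set was 0.77 higher in drought 72 than in drought 48 HAF seeds (r = 0.712). The part of these tissues in the gliadin values was not tested. The lists of regulators of storage protein genes and of folding in the endoplasmic reticulum had 0 annotated genes.

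Of the 766 annotated genes outside the gliadins, 30 correlated above 0.9 with the mean profile of the 8 gliadin probe sets over the 10 arrays (3.92%). The share of all tested probe sets was 0.739%. These shares are not alike, since each gene was read by its brightest probe set and the second share takes in every probe set. The 5 closest genes were LOC543098 (r = 0.988), LOC780684 (0.986), LOC543281 (0.984), LOC543286 (0.984) and LOC100125699 (0.981). LOC543098 read 7.06 and 7.45 in drought and 2.15 and 6.87 in control seeds at 72 HAF, and 1.78 and 5.84 in control seeds at 24 HAF. With each gliadin gene read by its brightest probe set only, LOC100125699 was closest to LOC543210 (0.990) and to LOC543211 (0.995). LOC543098 was closest to Ta.30782.4.S1_at of LOC543214 (0.991), LOC780684 to Ta.6699.1.S1_at of LOC543212 (0.969) and LOC543086 to LOC543385 (0.907). Only LOC543281 and LOC543286 among these have a synonym in the reference table.

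Probe sets that share a cluster number with the gliadin probe sets in their identifiers, a set looked at after the gliadin values were known, were 17 in number. Of these, 8 were at least 2-fold higher without overlap in drought 72 than in drought 48 HAF seeds, by 1.14 to 4.92, against 2.89% of all probe sets. None of the 8 has a gene symbol in the annotation. The 6 probe sets of the same cluster that do have one are assigned to LOC543484 and LOC100037526, and differed by -0.57 to 0.62. Which of the probe sets without a symbol measure gliadins was not tested.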

How the data were processed

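Whole developing seeds were measured on 1 Affymetrix wheat array per sample, 10 in all. The authors' deposited values are log2 expression values made with affy and RMA, per the submitters' processing notes (versions and settings not given in the sources used here). They entered the tests unchanged. Detection calls were not used here. The arrays hold 61290 probe sets, and the tests covered 61179 of them, without 111 controls. Of these 1273 had 1 gene symbol, 59906 none and 0 several, and all 5 gliadin genes matched the reference gene table by Entrez identifier. Groups and replicate numbers came from the sample titles.

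The test was a limma fit (limma 3.58.1 under R 4.3.3) with 1 mean per group and an intensity trend in the moderated variance, on 5 residual and 3.59 prior degrees of freedom, with Benjamini-Hochberg adjustment over all 61179 probe sets and a threshold of 0.05, in 8 contrasts. The step was tested on simulated data whose noise was capped far below the widest gliadin spread (SD 5.04 for Ta.30782.4.S1_at in control 72 HAF). It therefore does not show what size of gliadin change the fit could find. The gliadin genes, lists and tests were chosen with earlier results of these data known. All gliadin probe sets are named, and beside them the 5 closest genes to the gliadin mean, the closest to each gene and up to 6 per list. List patterns were applied to symbols and synonyms. Replicate differences correlated between groups at -0.519 to 0.586, so the replicate numbers did not pair the arrays. Alternatives were a low-value filter, no trend, only the compared groups, median centring, array weights, a replicate block, 1 probe set per gene and leaving out each array. No nucleotide or protein sequences were used here.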

Additional observations from a re-analysis of the deposited data

How the results depend on the processing

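Of 272 summary values (the median difference of the gliadin probe sets and the number called, in 8 comparisons), 254 stayed on their side of the threshold and within the spread between replicates. That count cannot show that the results are stable. The numbers called were 0 with all arrays, and the spread between replicates was wide in control 24 and control 72 HAF. The median for control 48 against 24 HAF counted as unchanged in all 17 alternatives, although leaving out single arrays moved it between -2.43 and 0.0013. With only the brightest probe set per gene the median difference was 2.32 for drought against control at 72 HAF, 2.52 for the difference of the drought effect, 2.55 for control 72 against 48 HAF, 5.07 for drought 72 against 48 HAF and 3.81 over both treatments. With a filter on low values, which left 3 of the 8 probe sets, these were 2.54, 2.66, 2.84, 5.50 and 4.17. Both choices go by the mean over all arrays and so favour probe sets that are high on some arrays, such as Ta.30782.4.S1_at, and the larger medians are built into them. In a fit of only the groups compared, 3 gliadin probe sets were called for drought 72 against 48 HAF, against 0 with all arrays.

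Leaving out 1 array moved the median between 0.059 and 1.89 for drought against control at 72 HAF, 0.10 and 2.04 for the difference of the drought effect, -0.15 and -0.0021 at 48 HAF and 2.01 and 2.23 for drought 72 against 48 HAF. The ranges were -0.065 to 1.86 for control 72 against 48 HAF, -2.43 to 0.0013 for control 48 against 24 HAF, -1.49 to 0.98 for control 72 against 24 HAF and 1.10 to 1.99 over both treatments. It called 0 to 3 gliadin probe sets for control 48 against 24 HAF and 0 to 2 for control 72 against 24 HAF, the calls coming without control 24 HAF replicate 1, and 0 in the other 6 comparisons.

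The replicate numbers as a block left the gliadin differences where they were (median 1.11 for drought against control at 72 HAF) and called 0 of the 8 in every comparison. In fits of 4 arrays, calls were counted over all 61179 tested probe sets and not for the gliadins apart. The numbers as labelled called 3 of them at 72 and 0 at 48 HAF. Crossed numbers, a pairing chosen after the data were seen, called 0 and 1. The number of arrays and the absence of detection calls limit what can be said of low gliadin values.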
